A study of Homo sapiens with 27 samples.

Results

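Epidermal growth factor (EGF) and transforming growth factor beta (TGFB) were given together to MCF10A cells, and each gene was asked whether the response to both was the sum of the responses to either. MCF10A is an established non-tumorigenic epithelial cell line from human breast. The contrast took 12 of the 27 libraries of the series, 3 in each of 4 groups: PBS (the vehicle), 10 ng/ml EGF, 10 ng/ml TGFB, and EGF+TGFB at 10 ng/ml of each. A further 12 libraries held the same 4 groups with 10 ng/ml of the cytokine oncostatin M (OSM) added: OSM, EGF+OSM, OSM+TGFB and EGF+OSM+TGFB. In all groups the cells had grown in medium with 20 ng/ml EGF, horse serum, insulin, hydrocortisone and cholera toxin, and had then spent 18 hours in growth-factor-free medium. Ligands were added in fresh medium of that kind, and polyadenylated RNA was taken 24 hours later. All libraries came from this line, and the labels do not say that replicates were separate cultures, so p-values measure the spread between these samples, which may be technical.

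EGF binds EGFR, a receptor tyrosine kinase whose RAS-ERK and PI3K branches drive growth of mammary epithelial cells, and MCF10A cells depend on it to proliferate. TGFB binds receptor kinases that phosphorylate SMAD factors, which enter the nucleus and turn genes on or off together with other factors. In epithelial cells TGFB is known both for arresting growth, in part by lowering MYC, and for promoting epithelial-mesenchymal transition (EMT), for which RAS-ERK signals are a known partner.

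Responses are log2 fold changes against PBS. The departure of a gene is its EGF+TGFB response minus the sum of its EGF and TGFB responses, which is 0 when the fold changes multiply. Levels are CPM, counts scaled to a common library size, given per library in replicate order or as mean ± SD (n = 3). A gene below the sum of its log2 responses can still lie above the sum of its gains in CPM. Adjusted p is that of the quasi-likelihood test in edgeR, corrected by Benjamini-Hochberg across the 16611 rows tested, and a call is an adjusted p under 0.05. The 12 libraries held 30143162 to 52947078 counts, and the biological coefficient of variation over all libraries was 10.1%. On the leading components of these 12 libraries, PC1 held 71.6% and PC2 16.3% of the variance, and EGF+TGFB replicate 3 lay at -18.3 on PC2 against -33.0 and -34.1 for the other EGF+TGFB libraries. The share of mitochondrial transcripts was 2.98% in PBS, 2.53% with TGFB, 1.76% with EGF and 1.62% with both, and its part in the results was not tested. The 8 epithelial markers summed to 12186 to 17836 CPM per library. Of 7 fibroblast markers, 5 were under 1 CPM in every group, and the sum was 141 to 149 CPM in PBS, 34.3 to 38.5 with EGF, 214 to 222 with TGFB and 73.8 to 90.2 with both. Of 5 immune markers, 3 were under 1 CPM, with sums of 78.4 to 85.2, 42.5 to 44.8, 105 to 111 and 70.8 to 73.5 CPM in the same order. The 4 endothelial markers summed to 35.0 to 38.5, 1.71 to 2.16, 17.7 to 20.6 and 0.730 to 1.19 CPM. The part of these markers in the results was not tested.

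EGF+TGFB departed from the sum in 4597 of 16611 rows (27.7%), 2046 higher (12.3%) and 2551 lower (15.4%), and in 665 of these by at least 2-fold. Against PBS, EGF alone raised 33.8% of rows and lowered 37.0%, TGFB alone raised 18.9% and lowered 14.7%, and the combination raised 35.0% and lowered 36.3%. The most frequent departure was a response that kept the direction of the sum but fell short of it, in 2491 rows, of which 1627 had a positive sum and 864 a negative one. The combination exceeded the sum in 822 rows, 467 above a positive sum and 355 below a negative one. In 216 rows, named back to the level of PBS, it lay across PBS from a called sum but had no call against PBS. It turned against a called sum, with a call against PBS, in 108 rows, 64 higher and 44 lower. Rows on the side of the sum were counted as short even where they did not differ from PBS by the test. In the other 960 rows the summed responses did not differ from 0 by the test. The departure and the sum share their PBS, EGF and TGFB libraries, so the class counts are a description. The class that opposed the sum was the least stable, with 60 to 64 rows when any of the 3 PBS libraries was left out. The split of directions moved between fits: 44.5% of departures were higher here, 34.0% when the 12 libraries were fitted alone, which also changes the filter and the estimate of the spread, and 34.0%, 31.9% and 35.6% without EGF+TGFB replicate 1, 2 and 3, which also removes data. The median departure of all rows, -0.02, then moved to -0.08, -0.08, -0.08 and -0.07. With only the scaling changed, by taking each of the 12 libraries in turn as its reference, an alternative added after the data were seen, the share ranged from 33.8% to 52.6%, the median from -0.08 to 0.02 and the number of departures from 4562 to 4819, so that departures near 0 are relative to the scaling.

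**Figure D1:**
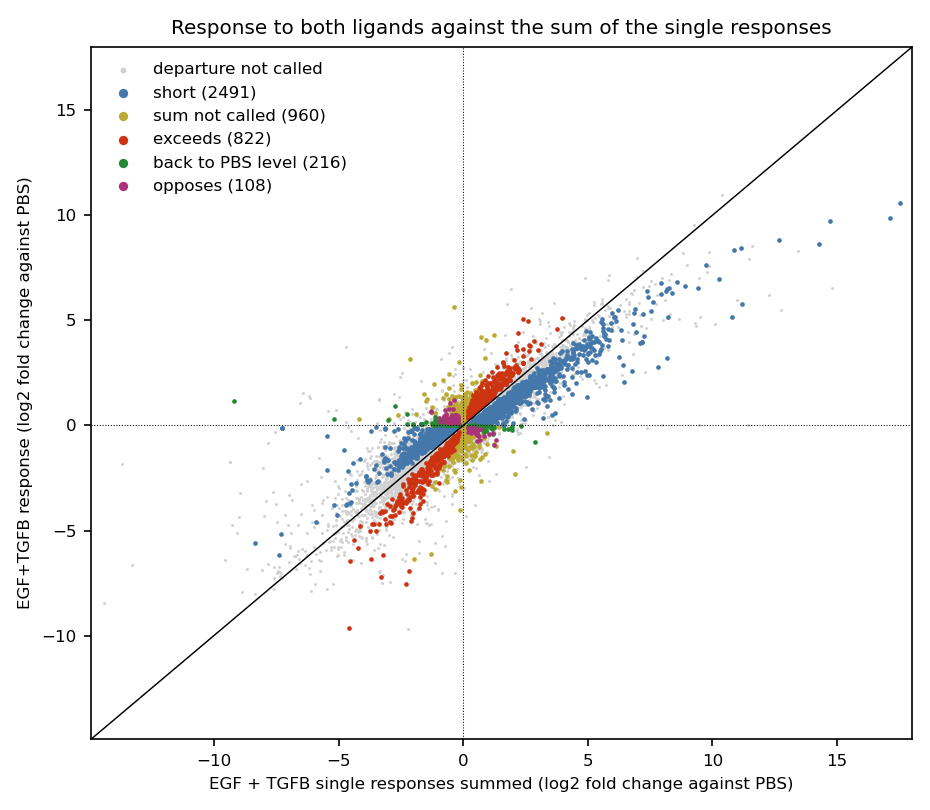
Each point is 1 tested row: the x axis is the sum of the EGF and TGFB responses and the y axis the EGF+TGFB response (both log2 fold change against PBS), with the line of equality in black. Coloured points have a called departure, by class, and the 2491 rows that fell short lie between the line and 0.

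Rows were also sorted by their single responses, as a description only, since those responses and the departure share their PBS, EGF and TGFB libraries and the sorting favours a departure of the opposite sign. Among 3202 rows raised by EGF and not called for TGFB, 1016 (31.7%) were lower than the sum with both and 166 were higher. Among 3959 rows lowered by EGF and not called for TGFB, 704 were higher than the sum and 223 lower. Of 1816 rows raised by both, 647 fell below the sum and 251 went above it. Of 3881 rows called for neither, 205 were higher and 151 lower. The combination stood above both single ligands, by the test against each, in 2265 rows (13.6%) and below both in 1802 (10.8%).

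Genes of ribosome production departed below the sum. All 16 tested genes of the MYC and ribosome biogenesis list, which make or process ribosomal RNA or are MYC itself, departed lower, against 15.4% of all rows, with a median departure of -0.47 against -0.02 over all rows. EGF alone raised 16 of 16 (33.8% of all rows) and TGFB alone lowered 11 of 16 (14.7%). With both ligands 9 stood above PBS and 4 below it (35.0% and 36.3% of all rows). Of the 16, 10 fell short of the sum, 2 went back to the level of PBS, 1 opposed the sum and 3 had a sum that was not called. MYC, the transcription factor that drives the programme, had 252, 255 and 247 CPM in PBS, 331, 351 and 354 with EGF, 195, 189 and 197 with TGFB and 164, 161 and 201 with both. With both ligands MYC lay below PBS in all 3 libraries, and its departure was -0.60 ± 0.13 (SE, adjusted p 0.0009). FBL (ENSG00000105202, chromosome 19, 39834458 to 39846379, minus strand), the ribosomal RNA methyltransferase fibrillarin, had 45.4, 48.2 and 43.9 CPM in PBS, 74.4, 76.5 and 80.5 with EGF, 40.9, 39.3 and 41.3 with TGFB and 40.6, 40.0 and 47.5 with both. The EGF rise in FBL was gone with both, where its libraries overlapped those of PBS and TGFB, against 68.1 CPM had the fold changes multiplied; the departure was -0.68 ± 0.09 (SE, adjusted p 1e-05). NCL, the nucleolar protein nucleolin, kept a small rise, at 555 ± 10.5 CPM in PBS, 1177 ± 85.1 with EGF, 465 ± 11.2 with TGFB and 638 ± 74.2 with both, with a departure of -0.63 ± 0.11 (SE, adjusted p 0.00016). NOP56, a core protein of small nucleolar particles, stood at 245 ± 7.63 CPM with EGF and 143 ± 18.1 with both (departure -0.57, adjusted p 0.0016). In the 12 fits that left out 1 library, 13 to 16 of these genes departed lower. FBL has a second row in the deposited table, and the row with more counts is given here and for every such gene.

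DNA replication genes also departed below the sum and were still raised by both ligands together. EGF raised 22 of 22 and EGF+TGFB still raised 22 of 22 (33.8% and 35.0% of all rows). The median response, in log2, was 3.35 with EGF and 2.39 with both. TGFB alone had a median of -0.03, yet 16 of 22 departed lower (15.4% of all rows did) and 0 higher. MCM7 (ENSG00000166508, chromosome 7, 100092233 to 100101940, minus strand), a subunit of the replicative helicase, had 28.1, 28.8 and 24.7 CPM in PBS, 194, 184 and 201 with EGF, 36.8, 36.0 and 36.1 with TGFB and 86.7, 81.3 and 109 with both. Its 3 libraries with both ligands lay below all 3 EGF libraries and above TGFB, against 258 CPM at the sum, a departure of -1.48 ± 0.16 (SE, adjusted p 9.8e-07). PCNA, the sliding clamp of DNA polymerase, stood at 29.4 ± 1.101 CPM in PBS, 147 ± 9.89 with EGF, 29.6 ± 0.872 with TGFB and 74.3 ± 12.5 with both (departure -0.996 ± 0.17 SE, adjusted p 0.00012). POLE2, a polymerase subunit, rose from 0.369 ± 0.00473 to 10.8 ± 0.802 CPM with EGF and reached 5.19 ± 0.919 with both (departure -1.19, adjusted p 0.0048). E2F1, a regulator of these genes, was the only member with a departure above 0, 0.23 (adjusted p 0.58). Leaving out 1 library gave 14 to 19 lower departures. In bulk RNA, fewer cells of a kind and less RNA per cell cannot be told apart, here and below.

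E2F factors bind replication genes at sites read as TTTGGCGC or TTTCCCGC. Of the list, 19 members had a RefSeq promoter window (250 bases before to 50 after the start, GRCh38.p14). In 12 of the 19 the window held either on some strand, 6 each, against 2.31% of all 27305 windows and 3.55% of 11408 windows of tested genes. The pair below, 1 for each spelling, is shown as the members with the lowest departure among those that hold it; capitals mark the match. MCM7 lies at chr7:100101348-100101647, minus strand and POLE2 at chr14:49688165-49688464, minus strand.
MCM7: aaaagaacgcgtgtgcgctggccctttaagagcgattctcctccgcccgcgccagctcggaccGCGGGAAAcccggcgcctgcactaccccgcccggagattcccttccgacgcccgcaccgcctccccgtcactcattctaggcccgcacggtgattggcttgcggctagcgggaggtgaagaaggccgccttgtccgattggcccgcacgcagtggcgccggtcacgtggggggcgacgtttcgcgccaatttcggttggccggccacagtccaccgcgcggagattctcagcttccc
POLE2: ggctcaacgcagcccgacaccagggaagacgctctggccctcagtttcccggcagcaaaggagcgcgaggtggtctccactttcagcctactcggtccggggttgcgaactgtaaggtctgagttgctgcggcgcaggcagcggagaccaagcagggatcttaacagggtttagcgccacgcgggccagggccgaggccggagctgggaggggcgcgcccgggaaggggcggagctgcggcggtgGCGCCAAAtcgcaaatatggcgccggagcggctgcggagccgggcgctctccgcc
A match is only these letters in this window. For the ribosome list, the MYC E-box CACGTG was in 3 of 11 windows, against 7.43% of all and 9.79% of those of tested genes. TGANTCA was also searched for, and was in 2 of 20 matrix, 3 of 10 protease and 1 of 12 ERK list windows. It was in 7.76% of all windows and 5.15% of those of tested genes.

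All 22 mitotic genes were raised by EGF (33.8% of all rows) and by EGF+TGFB (35.0%), and 7 were lowered by TGFB alone (14.7%). All 22 departures were below 0 and 4 passed the test (15.4% of all rows did), CCNA2, KIF11, KIF23 and TPX2 (-1.07, -0.57, -0.85 and -0.69). That number was 1 without EGF replicate 3, EGF+TGFB replicate 2, PBS replicate 2 or TGFB replicate 3, 2 without EGF+TGFB replicate 1 or TGFB replicate 1 or 2 and 7 without EGF+TGFB replicate 3. CCNA2, cyclin A, stood at 4.70 ± 0.640 CPM in PBS, 107 ± 10.5 with EGF, 4.42 ± 0.231 with TGFB and 48.5 ± 12.5 with both (departure -1.07 ± 0.32 SE, adjusted p 0.016). MKI67, a proliferation marker, had 519 ± 39.2 CPM with EGF and 272 ± 74.8 with both, and a departure of -0.30 (adjusted p 0.55). Among 11 cyclins, kinases and inhibitors of G1, 2 departed lower and 2 higher (4 higher without EGF replicate 2), near the 15.4% and 12.3% of all rows. CDK4, the kinase partner of D cyclins, had 68.6, 72.1 and 64.2 CPM in PBS, 113, 116 and 126 with EGF, 56.8, 58.1 and 58.8 with TGFB and 49.5, 48.7 and 65.0 with both. EGF raised CDK4, and with both ligands it was below PBS by the test, although replicate 3 lay within the PBS range; the departure of -0.89 ± 0.11 (SE, adjusted p 3e-06) opposed the sum. CDK2 departed by -0.80 (adjusted p 4.3e-05) and CCND3, cyclin D3, by 0.40 (adjusted p 0.00054). CDKN1A, the CDK inhibitor p21, had 472, 514 and 445 CPM in PBS, 236, 256 and 200.2 with EGF, 527, 556 and 483 with TGFB and 464, 518 and 395 with both. EGF lowered CDKN1A, but with both ligands its range overlapped that of PBS, a departure of 0.86 ± 0.17 (SE, adjusted p 0.00064). CCND1, cyclin D1, was at 228 ± 12.5 CPM with EGF and 239 ± 15.6 with both (departure -0.20, adjusted p 0.49).

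**Figure D2:**
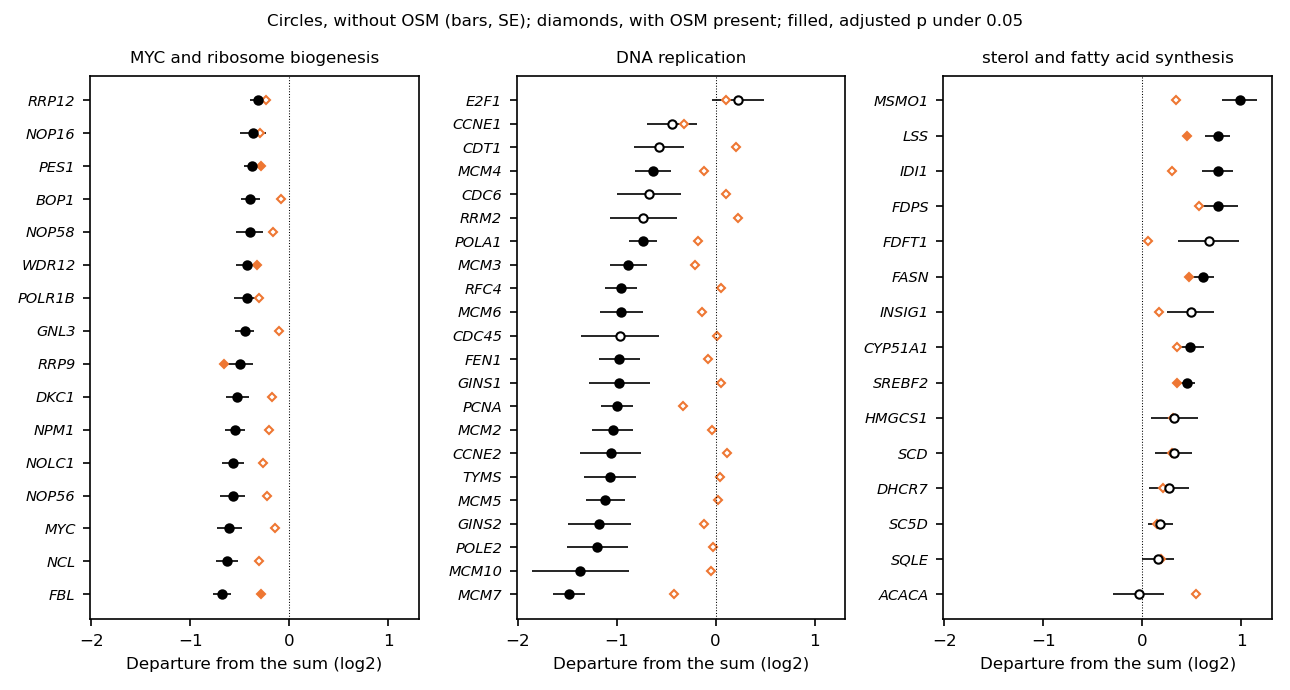
Departure from the sum for the tested genes of 2 lists and 15 of the 18 sterol genes (log2; circles, without OSM, with bars for SE; diamonds, with OSM present; filled, called). All 16 ribosome biogenesis genes lie below 0, as do 21 of 22 replication genes, and 14 of the 15 sterol genes drawn lie above it; with OSM the replication genes gather around 0.

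Sterol and fatty acid synthesis went the other way. Of 18 tested genes, 10 departed higher (12.3% of all rows did) and 0 lower, with a median departure of 0.50. EGF alone raised 14 of 18 (33.8% of all rows), and TGFB raised 2 and lowered 3 (18.9% and 14.7%). The combination stood above both single ligands in 13 of 18 (13.6% of all rows). MSMO1 (ENSG00000052802, chromosome 4, 165327667 to 165343164, plus strand), a sterol demethylation enzyme, had 99.8, 103 and 108 CPM in PBS, 184, 181 and 179 with EGF, 72.4, 88.1 and 99.0 with TGFB and 312, 310.0 and 276 with both. Its 3 libraries with both ligands lay above all others, against 151 CPM at the sum, a departure of 0.98 ± 0.17 (SE, adjusted p 0.00025). IDI1, which isomerises the isoprenoid unit, rose from 40.8 ± 2.76 to 133 ± 3.75 CPM with EGF and 298 ± 28.6 with both (departure 0.76, adjusted p 0.001). FDPS, farnesyl diphosphate synthase, reached 785 ± 62.1 CPM with both against 492 ± 26.3 with EGF (departure 0.76, adjusted p 0.0098). LSS, lanosterol synthase, departed by 0.76 (adjusted p 0.0001). SREBF2, the transcription factor of the programme, departed by 0.45 (adjusted p 0.00019) and FASN, fatty acid synthase, by 0.61 (adjusted p 0.00029), though FASN with both stood below PBS (log2 fold change -0.19, adjusted p 0.043). CYP51A1, which acts late in cholesterol synthesis, departed by 0.49 (adjusted p 0.0093, and up to 0.055 without EGF+TGFB replicate 2). ACACA had a departure of -0.04 (adjusted p 0.94). Leaving out 1 library gave 9 to 11 higher departures.

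Promoters of this pathway are known to combine sterol regulatory elements with CCAAT boxes. Of 12 members with a RefSeq window, 9 held CCAAT on some strand, against 35.7% of all windows and 36.2% of those of tested genes. In 1 the window held TCACNCCAC, against 1.15% and 1.12%. MSMO1, with the highest departure, and SREBF2, the window with that second match, are shown with their matches in capitals (CCAAT in MSMO1, TCACNCCAC in SREBF2), at chr4:165327419-165327718, plus strand and chr22:41832855-41833154, plus strand.
MSMO1: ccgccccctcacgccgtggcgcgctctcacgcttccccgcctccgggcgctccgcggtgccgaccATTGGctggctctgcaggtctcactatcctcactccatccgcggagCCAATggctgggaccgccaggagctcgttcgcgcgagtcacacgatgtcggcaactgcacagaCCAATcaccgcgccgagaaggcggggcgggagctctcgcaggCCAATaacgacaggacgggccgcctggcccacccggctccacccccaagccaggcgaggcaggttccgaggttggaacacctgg
SREBF2: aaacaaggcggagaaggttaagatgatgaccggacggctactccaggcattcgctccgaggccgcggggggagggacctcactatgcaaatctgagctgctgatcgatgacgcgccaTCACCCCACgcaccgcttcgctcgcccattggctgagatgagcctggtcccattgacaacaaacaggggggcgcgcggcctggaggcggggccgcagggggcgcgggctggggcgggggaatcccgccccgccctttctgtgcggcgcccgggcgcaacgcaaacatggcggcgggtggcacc
No site was tested.

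Readouts of the EGF-ERK branch fell short more often than they exceeded the sum. Of 19 ERK feedback genes and targets, 9 departed lower (15.4% of all rows did) and 3 higher (12.3% did; 1 of the list without EGF+TGFB replicate 2), with a median of -0.46. EGF raised 17 of the 19 (33.8% of all rows), TGFB alone 11 (18.9%) and the combination 17 (35.0%). The median response, in log2, was 1.87 with EGF, 0.58 with TGFB and 2.62 with both. The combination stood above both single ligands in 4 (13.6% of all rows) and below both in 1 (10.8%). DUSP6, an ERK phosphatase induced by ERK, had 5.82, 5.10 and 5.26 CPM in PBS, 102, 89.2 and 96.6 with EGF, 10.5, 10.1 and 10.5 with TGFB and 62.6, 58.5 and 62.2 with both. DUSP6 was lower with both than with EGF in every library, a departure of -1.60 ± 0.27 (SE, adjusted p 0.00015). ETV5, an ETS factor of this pathway, had overlapping levels with EGF (45.8 ± 2.97 CPM) and with both (45.4 ± 2.10), although TGFB alone raised it from 2.69 ± 0.264 to 9.11 ± 1.65 (departure -1.77 ± 0.25 SE, adjusted p 2.4e-05). EGR1, an early response factor, fell from 108 ± 3.55 CPM with EGF to 48.3 ± 3.96 with both (departure -1.21, adjusted p 0.00074). SPRED1 and SPRED2, inhibitors of RAS signalling, departed by -0.77 and -0.86. The genes above the sum were IER3 (0.58, adjusted p 0.00093), JUNB (0.57, adjusted p 0.011, and up to 0.054 without EGF+TGFB replicate 2) and PLAUR (0.53, adjusted p 0.0097, and up to 0.087 without EGF+TGFB replicate 2), the urokinase receptor.

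The cells' own EGF family ligands split. Of 12 ligands and receptors, 5 departed lower and 4 higher, against 15.4% and 12.3% of all rows. AREG, amphiregulin, had 12.01, 10.9 and 9.37 CPM in PBS, 302, 251 and 288 with EGF, 14.9, 13.8 and 15.8 with TGFB and 129, 109.9 and 176 with both. EGF raised AREG most, and the libraries with both lay between EGF and TGFB, a departure of -1.48 ± 0.33 (SE, adjusted p 0.0024). HBEGF, heparin-binding EGF-like growth factor, had 19.3, 18.7 and 20.7 CPM in PBS, 30.1, 28.2 and 29.1 with EGF, 19.4, 19.95 and 23.7 with TGFB and 64.5, 77.4 and 63.1 with both. TGFB alone did not move HBEGF past the test, yet with both ligands all 3 libraries lay above every other, against 31.3 CPM at the sum, a departure of 1.13 ± 0.15 (SE, adjusted p 4.8e-06). TGFA departed by 0.63 (adjusted p 0.00053) and EREG, epiregulin, by -1.07 (adjusted p 0.013). EPGN, epigen, departed by 0.89 (adjusted p 0.0052) and ERBB2 by 0.24 (adjusted p 0.046, and over 0.05 in 9 of 12 fits without 1 library). NRG1, a neuregulin, departed by -0.98 (adjusted p 0.022, and up to 0.098 without PBS replicate 2 or 3 or TGFB replicate 3) and LRIG1, which turns ERBB receptors over, by -0.53 (adjusted p 0.0029). EGFR, the receptor itself, measured 393 ± 17.9 CPM in PBS, 522 ± 34.1 with EGF, 539.5 ± 2.40 with TGFB and 567 ± 8.51 with both (departure -0.34, adjusted p 0.0019).

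Genes listed as SMAD feedback or TGFB targets did not move as one. Of 20 SMAD feedback genes and targets, 17 were raised by TGFB (18.9% of all rows were). Of the 20, 7 departed lower and 5 higher (15.4% and 12.3% of all rows did), and 9 stood above both single ligands (13.6%). PMEPA1, a TGFB-induced inhibitor of SMAD signalling, had 48.4, 44.2 and 46.6 CPM in PBS, 204, 199 and 177 with EGF, 505, 476 and 450.2 with TGFB and 783, 791 and 670.2 with both. Its libraries with both were the highest, but below the 1991 CPM at which fold changes multiply, a departure of -1.41 ± 0.14 (SE, adjusted p 2.7e-07). In CPM, the PMEPA1 gain exceeded the sum of the single gains. By sign alone, with no test, 11 of these 20 genes lay above the sum of gains in CPM, against 8 on the log2 scale. CCN2 (ENSG00000118523, chromosome 6, 131948176 to 131951372, minus strand), connective tissue growth factor, rose from 1.94 ± 0.366 to 32.0 ± 3.34 CPM with EGF, 28.2 ± 0.982 with TGFB and 146 ± 15.4 with both. CCN2 therefore fell short on the log2 scale (departure -1.68 ± 0.18 SE, adjusted p 7.5e-07) while its gain in CPM exceeded the sum of the single gains by 87.7 CPM. LDLRAD4, another SMAD inhibitor, went from 5.53 ± 0.733 CPM with TGFB back to 2.02 ± 0.122 with both, near its 1.53 ± 0.0502 in PBS (departure -1.37 ± 0.29 SE, adjusted p 0.00098). Above the sum lay SMAD7 (0.41, adjusted p 0.0056), the inhibitory SMAD, and TGFBI (0.43, adjusted p 0.015, and up to 0.097 without EGF+TGFB replicate 1 or 2 or PBS replicate 3), a secreted matrix protein, with TGFBR1 (0.38), a TGFB receptor, and the ubiquitin ligases SMURF1 (0.60) and SMURF2 (0.56). Below it lay also LTBP2 (-1.15), a latent TGFB-binding protein, SMAD3 (-0.46), SKI (-0.51) and TSC22D1 (-0.31).

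Ligands and antagonists of the BMP and activin branches included a shortfall of FST, follistatin, which binds activin. FST had 0.325, 0.517 and 0.685 CPM in PBS, 8.49, 8.19 and 8.58 with EGF, 4.20, 4.75 and 5.17 with TGFB and 7.29, 10.3 and 11.4 with both. Both single ligands raised FST, and the libraries with both overlapped those of EGF, a departure of -3.00 ± 0.33 (SE, adjusted p 7.5e-07). INHBA, an activin subunit, departed by -1.09 (adjusted p 0.0031) and BMP2 by 1.05 (adjusted p 2.4e-05), its EGF level of 5.48 ± 0.251 CPM against 13.6 ± 1.97 with both and 14.7 ± 0.463 in PBS. Of 11 genes of this list 3 departed lower, ID2 with -0.90 (adjusted p 0.0091) among them, and 2 higher (15.4% and 12.3% of all rows did). The other gene above the sum was NOG, at 1.101, 1.09 and 0.720 CPM with both, which lost its call in 9 of 31 alternative fits, and the number above the sum was 1 without EGF replicate 1 or 2, EGF+TGFB replicate 1 or 2, PBS replicate 3 or TGFB replicate 1, 2 or 3.

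Among EMT factors the sum was exceeded by SNAI1 and ZEB1. SNAI1 (ENSG00000124216, chromosome 20, 49982980 to 49988886, plus strand), the repressor Snail, had 0.225, 0.151 and 0.171 CPM in PBS, 0.290, 0.419 and 0.367 with EGF, 0.417, 0.743 and 0.492 with TGFB and 6.44, 5.84 and 5.11 with both. With both ligands SNAI1 was above every other library of the 4 groups, against 1.08 CPM at the sum, a departure of 2.39 ± 0.42 (SE, adjusted p 0.00018). ZEB1, a repressor of E-cadherin, had 2.60, 2.41 and 2.08 CPM in PBS, 6.06, 4.25 and 4.50 with EGF, 2.84, 3.69 and 2.84 with TGFB and 13.1, 11.8 and 10.9 with both, a departure of 0.87 ± 0.22 (SE, adjusted p 0.0042) with all 3 libraries above the rest. Of the 14 tested genes 2 departed higher (12.3% of all rows did) and 5 lower (15.4% did), a lower number that was 2 without EGF replicate 1 or PBS replicate 2 or 3 and 3 without EGF replicate 2 or TGFB replicate 1 or 2. Those were AXL, a receptor kinase (-0.66, adjusted p 0.00011), TWIST2 (-0.94, adjusted p 0.00035), HMGA2 (-0.72, adjusted p 0.022, and up to 0.072 without EGF replicate 1 or PBS replicate 2 or 3), VIM, vimentin (-0.27, adjusted p 0.047, and over 0.05 in 7 of 12 fits without 1 library), and FN1, fibronectin (-0.69, adjusted p 0.042, and over 0.05 in 8 of 12 fits without 1 library). FN1 was nonetheless highest with both, 132 ± 18.4 CPM in PBS, 648 ± 116 with EGF, 1964 ± 77.6 with TGFB and 5994 ± 665 with both. In CPM, the FN1 gain exceeded the sum of the single gains. By sign alone, with no test, 9 of the 14 genes lay above the sum of gains in CPM, against 4 on the log2 scale. CDH2, N-cadherin, rose to 14.9 ± 0.816 CPM with EGF, 21.9 ± 1.32 with TGFB and 98.6 ± 8.81 with both, close to the sum (departure -0.13, adjusted p 0.52). ZEB2 (0.29, adjusted p 0.26) and SNAI2 (-0.17, adjusted p 0.19) had no call.

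Epithelial junction genes, which EGF alone lowered in 16 of 22 (37.0% of all rows), departed higher in 5 and lower in 2 (12.3% and 15.4% of all rows did). CDH1, E-cadherin, measured 515 ± 15.1 CPM in PBS, 358 ± 37.3 with EGF, 656 ± 27.6 with TGFB and 589 ± 90.5 with both (departure 0.37, adjusted p 0.13). JUP, plakoglobin, had 1104, 1199 and 1242 CPM in PBS, 622, 695 and 576 with EGF, 1234, 1284 and 1293 with TGFB and 981, 1108 and 863 with both. Its libraries with both lay above all EGF libraries, and 1 of 3 reached the PBS range, a departure of 0.54 ± 0.13 (SE, adjusted p 0.0044). The others above the sum were CRB3, DSC3, TJP1 and ESRP1 (departures 0.75, 0.27, 0.31 and 0.26), each of which lost its call without EGF+TGFB replicate 2, and EPCAM (-0.76, adjusted p 0.0029) and MARVELD3 (-0.67, adjusted p 0.0028) were below it. The number above was 1 without EGF+TGFB replicate 2 and 3 without EGF replicate 1 or 3, EGF+TGFB replicate 1, PBS replicate 1 or TGFB replicate 1 or 2, and 7 without EGF+TGFB replicate 3.

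Matrix genes were mostly raised by either ligand and split in their departures. TGFB raised 16 of 22 and EGF 14 of 22 (18.9% and 33.8% of all rows). With the combination 12 stood above both single ligands (13.6% of all rows). Of the 22, 9 departed lower (15.4% of all rows) and 3 higher (12.3%), with a median of -0.33. THBS1 (ENSG00000137801, chromosome 15, 39581079 to 39599466, plus strand), thrombospondin, had 24.2, 21.96 and 28.9 CPM in PBS, 1009, 1017 and 1054 with EGF, 169.7, 165 and 216 with TGFB and 2292, 2348 and 2345 with both. Its libraries with both were above all others yet below the 7532 CPM at which fold changes multiply, a departure of -1.69 ± 0.32 (SE, adjusted p 0.00048). In CPM, the same THBS1 gain exceeded the sum of the single gains by 1143 CPM. VCAN, the proteoglycan versican, reached 205 ± 7.75 CPM with both against 101 ± 5.30 and 121 ± 11.2 with either (departure -2.29 ± 0.22 SE, adjusted p 3.3e-07), and COL12A1 departed by -1.17 (adjusted p 0.0029). TNC, tenascin, reached 1066 ± 209 CPM with both from 151 ± 36.4 and 172 ± 7.30 (departure -0.96, adjusted p 0.0033). Those above the sum were FBN1, fibrillin (0.84, adjusted p 0.00012), HSPG2, perlecan (0.54, adjusted p 0.018, and up to 0.072 without EGF+TGFB replicate 2), and BGN, biglycan, at under 0.5 CPM with both (1.39, adjusted p 0.0058). By class, 1 gene of the list exceeded the sum and 11 fell short of it. Most of these 3 therefore had a sum below 0 and a fall smaller than that sum. By sign alone, with no test, 16 of these 22 genes lay above the sum of gains on the CPM scale, against 10 on the log2 scale; over all 16611 rows it was 8810 and 7919.

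Enzymes that modify or crosslink matrix departed higher in 5 of 11 (12.3% of all rows did), P4HA2, LOX, P4HA1, PLOD2 and PLOD1 (0.91, 0.77, 0.48, 0.42 and 0.29), and the number was 1 without EGF+TGFB replicate 2, 2 without EGF replicate 3 or EGF+TGFB replicate 1 and 3 without EGF replicate 2 or PBS replicate 1. P4HA2, a collagen prolyl hydroxylase, had 178, 177 and 185 CPM in PBS, 131, 136 and 126 with EGF, 294, 289 and 285 with TGFB and 423, 415 and 349 with both. EGF alone lowered P4HA2, TGFB raised it, and all 3 libraries with both lay above TGFB, a departure of 0.91 ± 0.11 (SE, adjusted p 2.1e-06). TGM2, tissue transglutaminase, had 4.25 ± 0.415 CPM in PBS, 17.99 ± 3.32 with EGF, 182 ± 28.8 with TGFB and 795 ± 96.7 with both, close to the 769.7 CPM of the sum (departure 0.05 ± 0.29 SE, adjusted p 0.93). P4HA3, at 0.262 ± 0.149 CPM in PBS, 2.59 ± 0.453 with EGF, 8.25 ± 2.52 with TGFB and 9.74 ± 0.917 with both, fell short (-3.03 ± 0.41 SE, adjusted p 9.1e-06), and the other member below the sum was SERPINH1, a collagen chaperone (-0.27, adjusted p 0.043, and over 0.05 in 6 of 12 fits without 1 library). That lower number was 1 without EGF replicate 1 or 3, PBS replicate 1 or 2 or TGFB replicate 1 or 3.

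Of 19 matrix proteases and inhibitors, 6 departed higher (3 without EGF+TGFB replicate 2) and 5 lower, against 12.3% and 15.4% of all rows. MMP13, a collagenase, had 0.749, 0.947 and 0.611 CPM in PBS, 0.201, 0.360 and 0.342 with EGF, 16.0, 13.5 and 14.2 with TGFB and 0.660, 0.466 and 0.171 with both. TGFB raised it in every library, and with both ligands its libraries overlapped those of PBS and EGF, a departure of -3.67 ± 0.74 (SE, adjusted p 0.00079). MMP1 was at 0 in all 3 PBS libraries, 0.0749 ± 0.0614 CPM with TGFB, 3.27 ± 0.592 with EGF and 2.61 ± 0.728 with both. With PBS set at 3 counts over the group, its departure (adjusted p 0.0059) was at most -2.05. SERPINE2, a protease inhibitor, reached 134 ± 13.2 CPM with both from 45.4 ± 1.92 and 23.0 ± 2.95 (departure -1.76, adjusted p 2.6e-05). In CPM, the SERPINE2 gain exceeded the sum of the single gains. By sign alone, with no test, 16 of the 19 genes lay above the sum of gains in CPM, against 12 on the log2 scale. PLAU, urokinase, rose to 906 ± 109 CPM against 209 ± 35.7 with EGF and 221 ± 8.07 with TGFB (departure 0.57, adjusted p 0.02, and up to 0.093 without EGF replicate 3, EGF+TGFB replicate 1 or 2 or PBS replicate 2), and the metalloprotease ADAM12 departed by 1.17 (adjusted p 0.0001). MMP14 and PLAT, plasminogen activator, departed higher by 0.79 and 0.85, and ADAM19 lower by -1.16.

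Contractile genes and integrins rose with both ligands, 16 of 17 and 11 of 13 (35.0% of all rows did). TGFB alone raised 16 and 11 of them (18.9% of all rows), and EGF alone 13 and 11 (33.8%). The combination stood above both single ligands in 15 and 8 (13.6% of all rows). TPM1 (ENSG00000140416, chromosome 15, 63042620 to 63071915, plus strand), tropomyosin, had 72.3, 76.6 and 74.4 CPM in PBS, 78.0, 83.7 and 66.5 with EGF, 165, 162 and 158 with TGFB and 458, 481 and 346 with both. EGF alone did not move TPM1 past the test (adjusted p 0.78), yet all 3 libraries with both lay above TGFB, against 165 CPM at the sum, a departure of 1.37 ± 0.13 (SE, adjusted p 1.8e-07). FLNA, filamin, reached 4136 ± 247 CPM from 2298 ± 85.9 with EGF and 1266 ± 17.8 with TGFB, below the sum (-0.92, adjusted p 1e-06). MYL9, a myosin light chain, had no call (-0.03, adjusted p 0.96). Of 17 contractile genes 5 departed lower (15.4% of all rows did), also CCN2, ACTN1, AJUBA and CNN2 (-1.68, -0.65, -0.48 and -0.40), and 5 higher (12.3% did), also CALD1, AMOTL2, VCL and ZYX (0.48, 0.34, 0.31 and 0.29). The number higher was 1 without EGF replicate 3 or EGF+TGFB replicate 1 or 2, 2 without PBS replicate 2 and 3 without TGFB replicate 1. By sign alone, with no test, 15 of the 17 contractile genes lay above the sum of gains in CPM, against 7 on the log2 scale. For the 13 integrins it was 10 in CPM and 6 on the log2 scale. ITGB1, the common beta chain of integrins, had 954, 897 and 829 CPM in PBS, 1716, 1700.3 and 1688 with EGF, 1109, 1101 and 1119 with TGFB and 3329, 3193 and 2826 with both. It was the 1 integrin above the sum (0.56 ± 0.10 SE, adjusted p 0.00017), while ITGA6, ITGB4, ITGB5 and ITGB6 departed lower (-0.54, -0.40, -0.63 and -0.66). ITGB3, a vitronectin receptor chain, rose from 0.351 ± 0.107 CPM in PBS to 56.3 ± 14.1 with both, close to the sum (0.14, adjusted p 0.91).

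**Figure D3:**
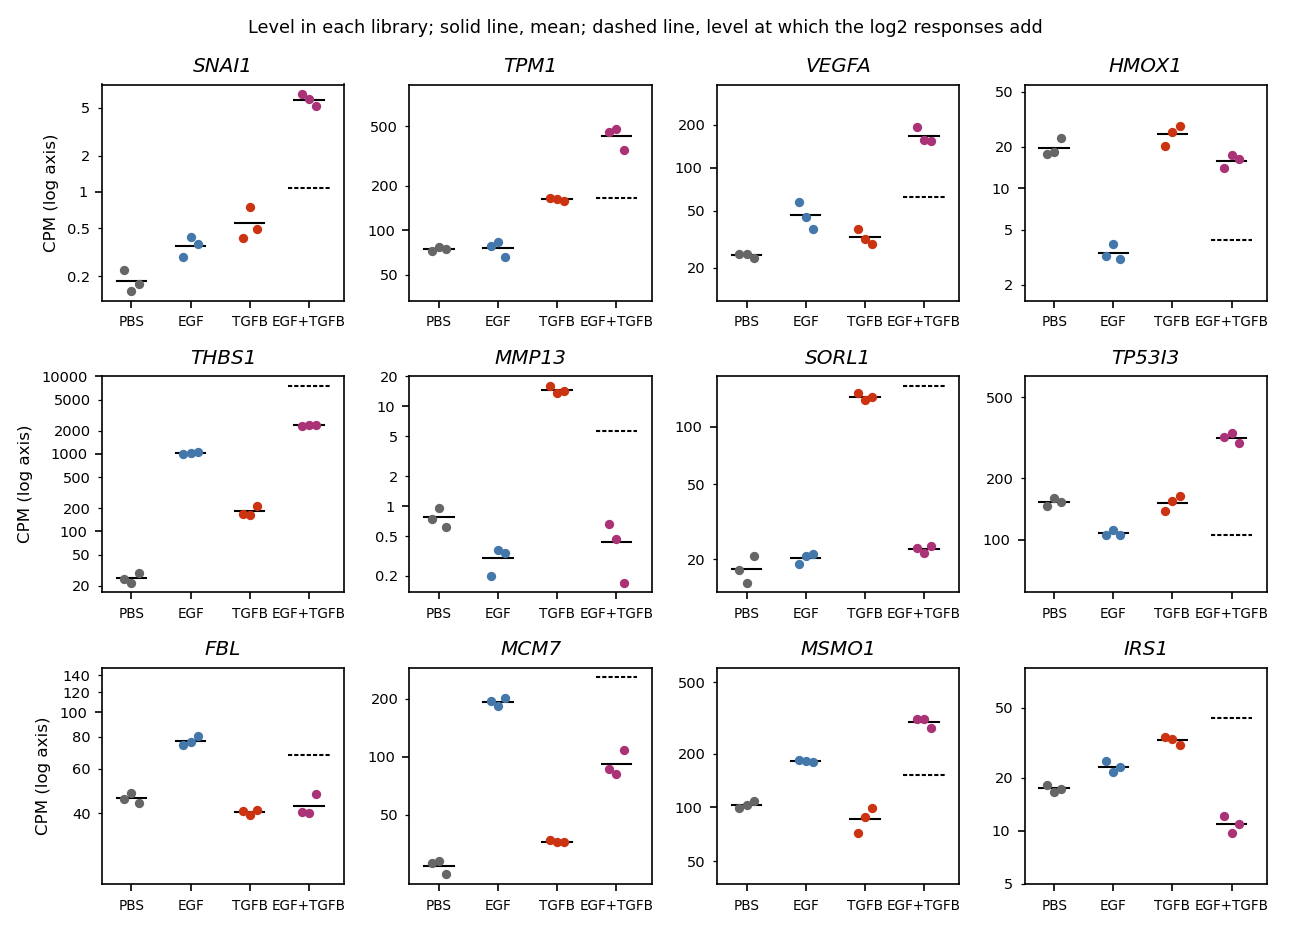
Level of 12 genes in each library (CPM, log axis; points, libraries; solid lines, means; dashed lines, EGF mean times TGFB mean over PBS mean, the level at which log2 responses add). SNAI1, TPM1, VEGFA, HMOX1, MSMO1 and TP53I3 lie above the dashed line with both ligands, and THBS1, MMP13, SORL1, FBL, MCM7 and IRS1 below it.

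Squamous differentiation genes fell further with both ligands than with either. EGF lowered 18 of 20 (37.0% of all rows), TGFB 6 (14.7%) and the combination 19 (36.3%). Below both single ligands lay 16 of the 20 (10.8% of all rows). Of the 20, 6 departed lower (15.4% of all rows did) and 0 higher. The number lower was 10 without EGF+TGFB replicate 3 and the number higher 1 without TGFB replicate 3. By sign alone, with no test, 12 of the 20 lay above the sum of gains in CPM, against 5 on the log2 scale. SPRR1B, a cornified envelope precursor, had 564, 659 and 746 CPM in PBS, 204, 242 and 254 with EGF, 464, 525 and 691 with TGFB and 65.2, 79.6 and 111 with both. All 3 libraries with both lay below every EGF library, against 199 CPM at the sum, a departure of -1.22 ± 0.26 (SE, adjusted p 0.0015). DSG1, a desmosomal cadherin of upper epidermal layers, measured 9.97 ± 2.18 CPM in PBS, 3.82 ± 0.604 with EGF, 8.46 ± 1.92 with TGFB and 0.863 ± 0.536 with both (departure -1.95 ± 0.43 SE, adjusted p 0.0014), and CALML5 departed by -1.27 (adjusted p 0.00087). SDR9C7, a dehydrogenase of the skin barrier, had 2 reads in all with both ligands and 105 with EGF, 1.96% of the EGF level (exact 95% interval 0.235 to 7.27, counting error only). Of 17 keratins and lineage factors, 2 departed higher (4 without PBS replicate 1) and 2 lower (4 without EGF+TGFB replicate 2), shares near the 12.3% and 15.4% of all rows. KRT8, a simple epithelial keratin, had 257, 267 and 261 CPM in PBS, 145, 164 and 129 with EGF, 358, 365 and 338 with TGFB and 478, 521 and 364 with both. EGF lowered KRT8, TGFB raised it, and with both 2 of 3 libraries lay above all TGFB libraries and 1 within their range, a departure of 1.21 ± 0.14 (SE, adjusted p 1.9e-06). KRT7 departed by 0.42 (adjusted p 0.0036). KRT6B, a keratin of activated epidermis, departed by -1.03 (adjusted p 0.00046), and TP63, the basal lineage factor, by -0.22 (adjusted p 0.011, and up to 0.11 with no filter on low counts).

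Of 23 tested chemokines and cytokines 3 departed higher (12.3% of all rows did), CXCL3, CXCL2 and IL1A (2.14, 0.86 and 0.65), and 2 lower (15.4%), IL33 and CXCL14 (-3.07 and -1.51). IL6 was at 0 in PBS and reached 6.18 ± 1.42 CPM with both, from 0.0438 ± 0.0215 with EGF and 0.274 ± 0.0348 with TGFB, with a departure that had no call (adjusted p 0.67). CXCL8 (-0.02, adjusted p 0.98), CXCL1 (0.30, adjusted p 0.53) and LIF (0.44, adjusted p 0.24) had none either. CXCL3, a neutrophil chemokine, had 0.949, 0.861 and 1.05 CPM in PBS, 0.914, 0.699 and 0.733 with EGF, 0.391, 0.863 and 0.711 with TGFB and 2.17, 2.15 and 2.85 with both. Neither ligand alone moved it past the test, and all 3 libraries with both were above the rest (departure 2.14 ± 0.31 SE, adjusted p 1.8e-05). The number above the sum was 1 without EGF+TGFB replicate 1, 2 or 3, PBS replicate 2 or TGFB replicate 1, and the number below was 0 without PBS replicate 2 or TGFB replicate 3 and 1 without EGF replicate 1, 2 or 3, EGF+TGFB replicate 1, 2 or 3, PBS replicate 3 or TGFB replicate 1 or 2. EGF lowered 13 of 19 interferon response genes (37.0% of all rows). Of the 19, 5 departed higher (12.3% of all rows did) and 0 lower: IRF9, a subunit of the interferon-activated complex, at 6.11 ± 0.887 CPM in PBS, 2.64 ± 0.497 with EGF, 7.64 ± 0.421 with TGFB and 7.35 ± 0.733 with both (departure 1.15 ± 0.20 SE, adjusted p 0.00013), IFI6 (0.99, adjusted p 0.0079), IFI27 (0.93, adjusted p 0.012, and up to 0.07 without EGF+TGFB replicate 2 or PBS replicate 2), IRF7 (0.68, adjusted p 0.04, and over 0.05 in 8 of 12 fits without 1 library) and ISG15 (0.64, adjusted p 0.049, and over 0.05 in 9 of 12 fits without 1 library). That number was 2 without EGF+TGFB replicate 2 or PBS replicate 2 and 3 without EGF replicate 1, EGF+TGFB replicate 3, PBS replicate 3 or TGFB replicate 2 or 3. IFIT1 (-0.44, adjusted p 0.3) and MX1 (0.04, adjusted p 0.95) had no call.

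Metabolic and stress genes held single strong departures. VEGFA (ENSG00000112715, chromosome 6, 43770184 to 43786487, plus strand), the angiogenic factor, had 24.7, 25.0 and 23.4 CPM in PBS, 57.3, 45.3 and 37.3 with EGF, 37.0, 32.0 and 29.4 with TGFB and 192, 156 and 155 with both. Its libraries with both stood above all others, against 62.7 CPM at the sum, a departure of 1.42 ± 0.18 (SE, adjusted p 9e-06). Of 15 genes of glycolysis and hypoxia, 3 departed higher and 3 lower, near the 12.3% and 15.4% of all rows, with NDRG1, a stress-response gene that TGFB raised to 700.3 ± 30.9 CPM, at 249 ± 16.2 with both and 331 ± 15.7 in PBS (departure -0.90, adjusted p 9.2e-05). SLC2A1, a glucose transporter, departed by 0.70 (adjusted p 3e-06) and ALDOA by 0.40 (adjusted p 7.3e-05), and PFKP and LDHA by -0.29 and -0.28. HMOX1 (ENSG00000100292, chromosome 22, 35380361 to 35394214, plus strand), heme oxygenase, had 17.8, 18.3 and 22.9 CPM in PBS, 3.21, 3.94 and 3.08 with EGF, 20.2, 25.4 and 28.0 with TGFB and 13.9, 17.3 and 16.2 with both. EGF lowered HMOX1 and TGFB left it unmoved by the test (adjusted p 0.1), but with both ligands its libraries lay above all EGF libraries, a departure of 1.89 ± 0.22 (SE, adjusted p 2.3e-06). Of 13 NRF2 antioxidant genes 3 departed higher and 2 lower, against 12.3% and 15.4% of all rows. The number higher was 1 without EGF replicate 1, EGF+TGFB replicate 2 or PBS replicate 3. The number lower was 1 without EGF replicate 3, PBS replicate 1 or TGFB replicate 3. AKR1C2 was among those lower (-0.91, adjusted p 0.004). The others were AKR1B10 (0.88), GCLM (0.45) and AKR1C3 (-0.47). EGF lowered 12 of 13 FOXO and starvation genes (37.0% of all rows). Of the 13, 2 departed higher and 1 lower, against 12.3% and 15.4% of all rows. The number higher was 1 without EGF+TGFB replicate 1 or 2. The number lower was 0 without EGF replicate 1 or 2, PBS replicate 2 or 3 or TGFB replicate 1 or 2. It was 2 without EGF+TGFB replicate 1 or PBS replicate 1. BTG1, an antiproliferative gene, was at 62.4 ± 3.90 CPM with EGF and 83.0 ± 10.3 with both, against 394 ± 19.5 in PBS (departure 0.66, adjusted p 0.0053); the others were CCNG2 (0.40) and SESN1 (-0.41).

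**Figure D4:**
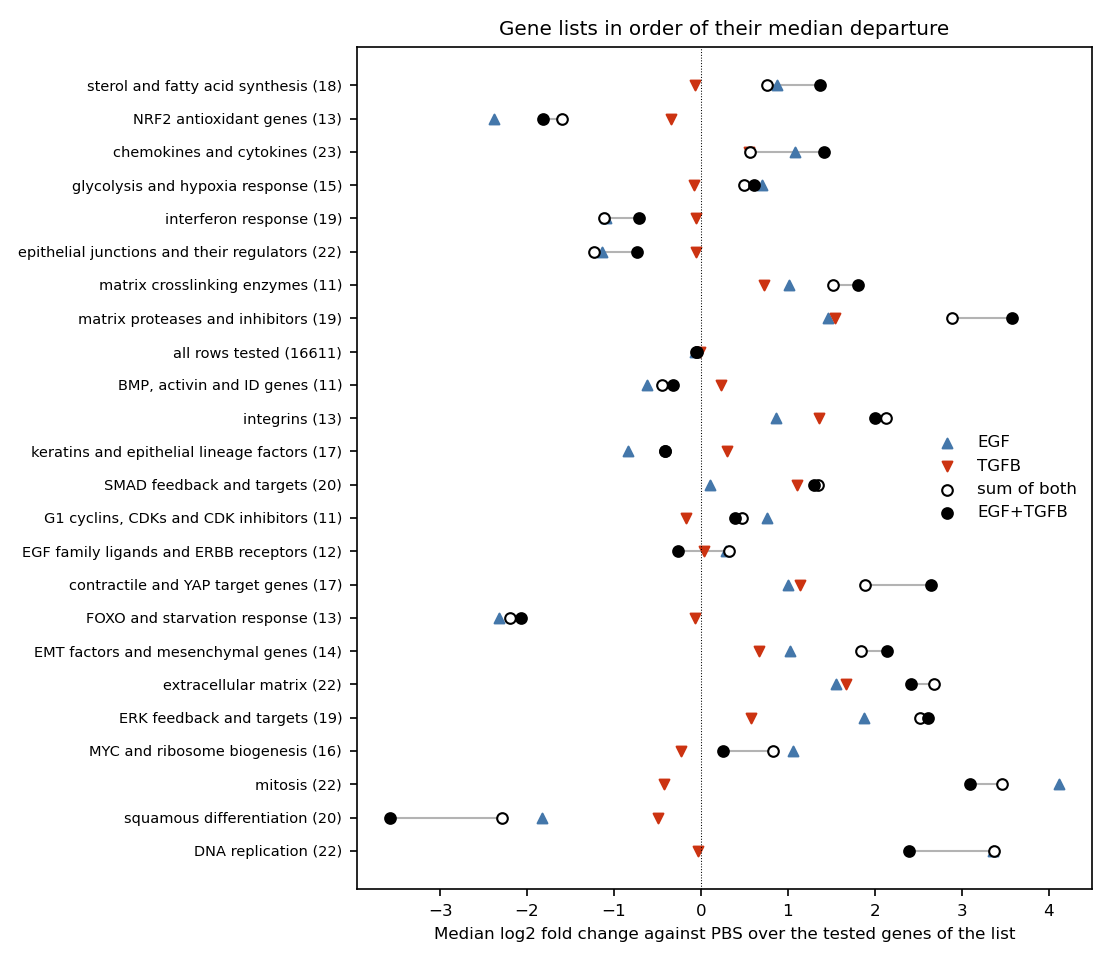
Median log2 fold change against PBS of each gene list (x axis; triangles, EGF up-pointing and TGFB down-pointing; open circles, their sum gene by gene; filled circles, EGF+TGFB), ordered by the median departure, with the number of tested genes. The filled circle lies left of the open one for DNA replication, squamous differentiation, mitosis and ribosome biogenesis, and right of it for sterol synthesis; a gap between medians need not equal the median departure.

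Outside the lists, the genes with the highest departures included several that were low with either ligand. DHRS2, a mitochondrial reductase, had 0.425, 0.452 and 0.269 CPM in PBS, 0.446, 0.3995 and 0.464 with EGF, 0.757, 0.599 and 0.574 with TGFB and 6.25, 6.69 and 6.72 with both, where all 3 libraries lay above the rest (departure 3.16 ± 0.36 SE, adjusted p 9.7e-07). LMCD1, a LIM-domain cofactor, had 1.12, 0.990 and 1.35 CPM in PBS, 2.43, 2.18 and 1.93 with EGF, 2.69, 2.73 and 2.87 with TGFB and 25.5, 24.8 and 21.7 with both. Both single ligands raised LMCD1 slightly and together far more, against 5.22 CPM at the sum (2.20 ± 0.21 SE, adjusted p 1.1e-07). DGKI, a diacylglycerol kinase, was under 0.6 CPM in all other libraries and at 7.12 ± 0.530 with both (2.66, adjusted p 0.0008). PCDHGC5, a protocadherin that shares exons with its cluster neighbours, so that its counts are uncertain, departed by 3.49 (adjusted p 0.0042). SLCO2A1, a prostaglandin transporter, fell to 0.749 ± 0.0708 CPM with EGF and was at 5.31 ± 1.32 with both and 4.53 ± 0.385 in PBS (3.27, adjusted p 1.9e-07). RETREG1, an endoplasmic reticulum autophagy receptor, had 10.6, 10.5 and 11.6 CPM in PBS, 3.68, 3.82 and 4.45 with EGF, 5.04, 6.64 and 7.05 with TGFB and 11.9, 11.3 and 11.4 with both. Either ligand lowered RETREG1, and both together left it not apart from PBS by the test, a departure of 2.34 ± 0.19 (SE, adjusted p 9.8e-09). TMEM265 fell from 13.2 ± 2.68 CPM in PBS to 2.81 ± 1.45 with EGF and was at 19.3 ± 3.64 with both (2.79, adjusted p 0.0078). MAP7D2 fell from 12.4 ± 1.99 to 0.0919 ± 0.0534 CPM with EGF and was at 0.263 ± 0.1246 with both (2.73, adjusted p 0.0079), so its high departure went with a level near 0.

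The lowest departures were of several kinds. SORL1 (ENSG00000137642, chromosome 11, 121452314 to 121633763, plus strand), a sorting receptor, had 17.5, 15.1 and 20.9 CPM in PBS, 19.0, 20.8 and 21.3 with EGF, 150.05, 138 and 144 with TGFB and 23.1, 21.7 and 23.7 with both. TGFB alone raised it, and with EGF added it fell and did not differ from EGF alone by the test, a departure of -2.85 ± 0.15 (SE, adjusted p 2.2e-11). TNFRSF6B, a decoy receptor, was at 0 in PBS, 0.217 ± 0.192 CPM with TGFB, 8.35 ± 1.83 with EGF and 4.81 ± 0.181 with both; with PBS at 3 counts its departure was at most -3.99 (adjusted p 0.014, and no call without TGFB replicate 3). SCG5, a neuroendocrine chaperone, rose from 4 reads in PBS to 7.49 ± 0.762 CPM with EGF and 15.8 ± 2.47 with both (-3.84, adjusted p 0.00013). SERTAD4 departed by -3.21 (adjusted p 1.4e-06) and ZNF704 by -2.85 (adjusted p 9.3e-10), the latter at 2.56 ± 0.456 CPM in PBS, 8.47 ± 0.380 with EGF, 15.8 ± 1.58 with TGFB and 7.28 ± 0.288 with both. INO80B-WBP1, a readthrough of neighbouring genes whose counts are uncertain, had -4.38 (adjusted p 0.0032).

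Genes that opposed the sum included TP53I3 and IRS1. TP53I3 (ENSG00000115129, chromosome 2, 24077433 to 24085861, minus strand), a p53-induced oxidoreductase, had 147, 161 and 154 CPM in PBS, 106, 111 and 105 with EGF, 138, 154 and 163 with TGFB and 320.5, 333 and 297 with both. EGF alone lowered it and TGFB alone did not move it past the test, yet with both it was above every other library, a departure of 1.58 ± 0.12 (SE, adjusted p 2.8e-09). DENND3, a RAB exchange factor, was also lowered by EGF and highest with both (20.6 ± 0.903 CPM in PBS, 9.43 ± 1.53 with EGF, 18.5 ± 1.56 with TGFB and 32.7 ± 4.07 with both; departure 1.95, adjusted p 4.7e-08). B3GNT2, a glycosyltransferase, was raised by EGF and lowered by TGFB (33.3 ± 0.631 CPM in PBS, 39.8 ± 1.07 with EGF, 21.5 ± 1.71 with TGFB and 76.3 ± 4.25 with both; departure 1.57, adjusted p 6.4e-09). IRS1 (ENSG00000169047, chromosome 2, 226731312 to 226799820, minus strand), the adaptor of the insulin receptor, had 18.1, 16.7 and 17.3 CPM in PBS, 24.9, 21.5 and 23.0 with EGF, 34.2, 33.0 and 30.8 with TGFB and 12.1, 9.67 and 10.97 with both. Either ligand raised IRS1, and together they put it below PBS in every library, a departure of -2.003 ± 0.18 (SE, adjusted p 5.9e-08). FGFR2, a fibroblast growth factor receptor, rose with TGFB to 18.9 ± 0.815 CPM and was at 6.35 ± 0.151 with both, below its 8.25 ± 0.296 in PBS (-1.58, adjusted p 6.7e-09). APOBEC3B, a cytidine deaminase, departed by -1.46 (adjusted p 0.00014) and NRARP, a Notch target, by -2.17 (adjusted p 7.3e-05).

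The 12 libraries with OSM gave the same contrast over other samples: whether EGF and TGFB together matched their sum when OSM was present throughout. There, 2522 rows departed (15.2%), 1364 higher (8.21%) and 1158 lower (6.97%), and without EGF+OSM replicate 3 the number was 1454. The 1541 rows called in both settings with the same sign were 33.5% of the 4597 without OSM and 61.1% of the 2522 with it (975 without EGF+OSM replicate 3), and 42 were called with opposite signs. Of rows called without OSM, 84.9% had the same sign with it, against 68.2% of all rows, and Pearson's r of the departures was 0.514 over those rows and 0.134 over all; rows share libraries and are not independent. The difference of the departures, tested as a 3-way contrast, was called in 560 rows (3.37%), 473 of them among the 4597.

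**Figure D5:**
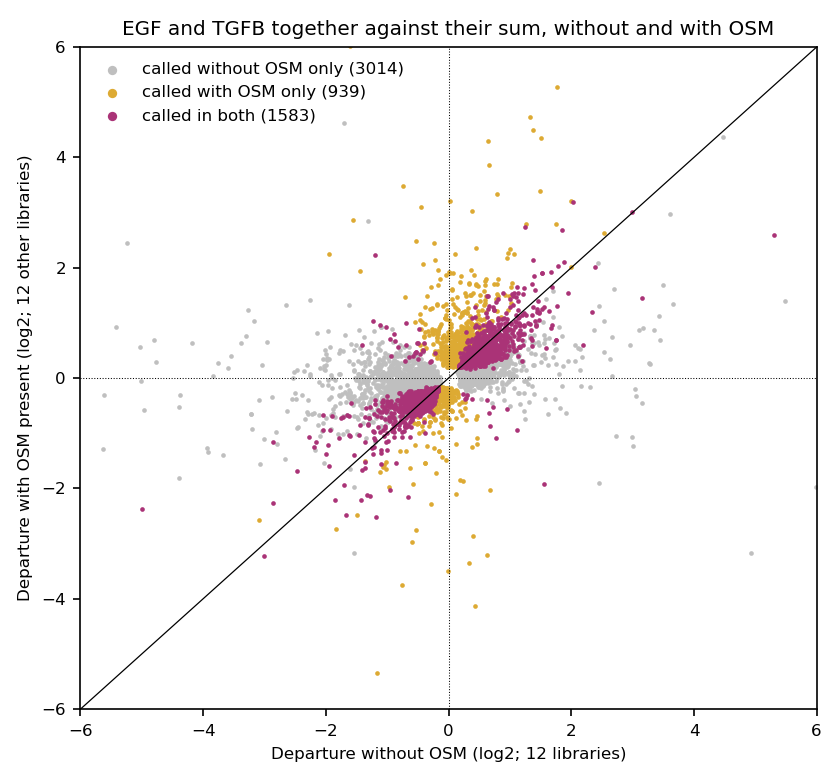
Departure of EGF and TGFB from their sum without OSM (x axis) and with OSM present (y axis), both log2, for rows called in either, from separate sets of 12 libraries; the black line is equality. The 1583 rows called in both lie mostly in the lower left and upper right quadrants, and 18 called rows lie outside the axes.

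Some departures were called again with OSM and some were not; whether lists differ in this was not tested. SNAI1 stood at 14.9 CPM with OSM, 3.62 with EGF+OSM, 53.1 with OSM+TGFB and 52.4 with all 3. Unlike without OSM, its mean with EGF+OSM lay below OSM, and that with all 3 did not exceed OSM+TGFB. In this other pattern SNAI1 was called again, with a departure of 2.02 ± 0.17 (SE, adjusted p 5e-08). HMOX1 was too (2.10, adjusted p 3.3e-06), as were SORL1 (-2.26, adjusted p 9.9e-09), FST (-3.22, adjusted p 2e-06), IRS1 (-1.38, adjusted p 5.6e-05), DUSP6 (-1.06, adjusted p 0.0045), EGR1 (-1.25, adjusted p 0.0017) and CDK4 (-0.63, adjusted p 0.00053), and in none of these was the 3-way contrast called. For replication genes 0 of 22 departed with OSM, with a median of -0.03, and 0 of 22 mitotic genes (8.21% of all rows departed higher and 6.97% lower). Yet 3 replication genes passed the test of the difference itself (3.37% of all rows did), MCM5 (1.14), MCM7 (1.07) and RFC4 (1.01). MCM7 was at 115 CPM with OSM, 229 with EGF+OSM, 57.1 with OSM+TGFB and 85.0 with all 3, so that TGFB went with a lower level both with EGF and without it. Of the ribosome biogenesis genes 4 of 16 departed lower with OSM (6.97% of all rows did) and 0 passed the 3-way test. Of sterol genes 3 of 18 departed higher (8.21% of all rows did) and 0 passed it.

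Part of the SMAD targets and matrix genes had a higher departure with OSM. With OSM, 9 of 20 SMAD genes departed higher and 1 lower (5 and 7 without it, and 8.21% and 6.97% of all rows with OSM). Of the 20, 7 passed the 3-way test upward and 1 downward, against 351 and 209 of all 16611 rows. PMEPA1 was at 211 CPM with OSM, 149 with EGF+OSM, 736 with OSM+TGFB and 786 with all 3, and its departure went from -1.41 to 0.60 ± 0.14 (SE, adjusted p 0.0057), a difference of 2.01 ± 0.20 (SE, adjusted p 6.2e-06). Among matrix genes 8 of 22 departed higher with OSM and 0 lower, and 8 passed the 3-way test, FN1 (1.68, adjusted p 0.0084), TNC (1.68, adjusted p 0.0037) and VCAN (1.90, adjusted p 0.00098) among them. Junction genes departed higher in 14 of 22 with OSM, against 5 without, and 3 passed the test of the difference: OVOL1 (1.65), PKP1 (1.88) and GRHL3 (1.099). HBEGF lost its excess, with 19.2 CPM with OSM, 28.9 with EGF+OSM, 24.1 with OSM+TGFB and 30.3 with all 3, a departure of -0.27 (adjusted p 0.24) and a difference of -1.40 (adjusted p 0.00032). TPM1 lost it too (0.23, adjusted p 0.28; difference -1.14, adjusted p 0.0011).

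A last contrast asked whether TGFB did the same on a background of EGF as on a background of OSM, and 1071 rows (6.45%) differed, 554 higher on EGF and 517 lower. SNAI1 responded more on EGF, by 2.17 (adjusted p 1.6e-06), from 0.359 ± 0.0652 to 5.79 ± 0.666 CPM on EGF and from 14.9 ± 1.26 to 53.1 ± 1.51 on OSM, where its level was higher throughout. Of 23 cytokines 7 responded more to TGFB on EGF and 1 less, against 554 and 517 of all 16611 rows. IL6 (2.41), CXCL1 (1.55) and CXCL8 (1.53) were among the former and IL1B (-1.23) was the latter. MMP13 rose with TGFB on OSM, from 1.04 ± 0.594 to 10.8 ± 5.59 CPM, and not on EGF (-2.82, adjusted p 0.022). FN1 (-1.41, adjusted p 0.0011) and LDLRAD4 (-1.84, adjusted p 0.0003) also responded less on EGF.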

How the data were processed

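RNA-seq of 27 MCF10A libraries, 3 in each of 9 groups, was read from 1 table of 40487 rows. The values are estimated counts, deposited by the authors as whole numbers and not scaled to depth. Per the submitters' processing notes, Trim Galore 0.4.3, cutadapt 1.10, FastQC 0.11.5, kallisto 0.46.2 and R 3.5.0 were used, with the builds GRCh38.p5 and hg38 named. The annotation and the way transcripts were summed to genes are not given in the sources used here. Estimated counts share ambiguous reads between near-identical genes, so that members of such families are less certain. Rows without a gene symbol held 0.324% of counts.

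All 27 libraries were fitted in edgeR 4.0.16 (R 4.3.3) by its quasi-likelihood test, robust, with TMM scaling and its filter by group (16611 rows kept, 18 residual degrees of freedom). Standard errors are the log2 value over the root of F. The prior count of fold changes was 0.125. The other 3 libraries, taken at the start of treatment, entered the fit for the spread only. Depth was 30143162 to 52947078 counts per library, and intervals cover counting error only. Genes were named by rule: at a mean of 1 CPM or more, the 8 highest and 8 lowest called departures, the 4 largest in each class and direction and the 10 largest of 1 sign with and without OSM; in each of 23 lists up to 4 called members, whatever their level; other list members where a group is described. Some named by it are not reported here. The lists and the contrast were chosen with earlier results of these data known. A departure against a group at 0 was computed with that group at 3 counts. Alternatives were DESeq2 1.42.0, upper-quartile scaling, no low-count filter, no robust estimation, summed rows of a symbol, the 12 libraries alone, the replicate number as a block, a 2-fold limit, the CPM scale, each library left out and, added after the data were seen, the reference library of TMM. The fits were tested on simulated data. Coordinates are from GENCODE 44 (GRCh38), and promoters from RefSeq (GRCh38.p14).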

Additional observations from a re-analysis of the deposited data

Results flagged for a closer look

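For 34 genes named by the rule, the departure of EGF and TGFB from their sum differed with and without OSM by the test of the difference itself (the 3-way contrast, departure with OSM minus departure without it, the quasi-likelihood test in edgeR, corrected by Benjamini-Hochberg across all rows). These genes were named mostly by the size of their departure without OSM, which the difference subtracts, so its sign, above 0 in 20 and below 0 in 14, largely follows from the choice of genes.

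Among genes of matrix, adhesion and TGFB signalling the difference was 0.51 for ACTN1, 0.74 for FLNA, 0.62 for ITGB5, 1.06 for ITGB6, 1.25 for CCN2, 1.30 for LTBP2, 1.90 for VCAN and 2.01 for PMEPA1. It was 3.27 for P4HA3, whose level in PBS was 0.262 ± 0.149 CPM, and 3.89 for SCG5, which had 4 reads in PBS, so that both sizes rest on few counts. LTBP2, for example, had 28.8 ± 3.21 CPM in PBS, 150.5 ± 10.8 with EGF, 164 ± 7.22 with TGFB and 385 ± 20.3 with both. It was at 189.8 CPM with OSM, 182 with EGF+OSM, 494 with OSM+TGFB and 524 with all 3. Its OSM level was above its PBS level, and its departure went from -1.15 (adjusted p 1.7e-07) to 0.15 (adjusted p 0.42). Among genes of growth and of the EGF branch the difference was 0.70 for CDK2, 1.07 for MCM7, 1.01 for KIF11, 1.45 for ETV5 and 1.36 for TNFRSF12A, a TNF receptor family member. The others above 0 were NDRG1 with 0.98, AKR1C2 with 1.31, FGFR2 with 1.22, ZNF704 with 1.70 and SERTAD4 with 2.56, the last at 0.156 ± 0.0139 CPM in PBS.

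In 14 genes the difference was below 0. It was -1.40 for HBEGF, -1.14 for TPM1, -0.99 for VEGFA, -0.90 for KRT8, -1.01 for BMP2 and -1.997 for CXCL3. It was -1.04 for TP53I3, -1.63 for DENND3 and -1.22 for B3GNT2, which opposed the sum without OSM. LMCD1 had -1.60, with 1.59 CPM with OSM, 1.63 with EGF+OSM, 31.6 with OSM+TGFB and 49.4 with all 3, so that TGFB on OSM went with a high level that TGFB alone did not have. SLCO2A1 had -3.00, with 14.5 CPM with OSM, 17.7 with EGF+OSM, 107 with OSM+TGFB and 158 with all 3, all above its PBS level of 4.53 ± 0.385 CPM. The rest were RETREG1 with -1.14, PAPSS2 with -1.80 and FGF1, a fibroblast growth factor at 0.405 ± 0.138 CPM in PBS, with -2.47. The 3-way contrast moved with the fit, and the number of rows it called under other fits is given with the other alternatives.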

How the results depend on the processing

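Of 217 genes tested under 31 alternatives each (the rule's 129 and the called members of the lists), 54 lost their call under at least 1 and 0 changed sign on the log2 scale. The CPM scale is not among the 31. Leaving out 1 library at a time gave 3798 to 5066 departures, 60 to 136 rows that opposed the sum, 1454 to 3380 departures with OSM, and 975 to 1879 shared in sign with those without it. The lowest came without PBS replicate 3 for opposition and without EGF+OSM replicate 3 for both OSM counts, and the cause was not tested. With no filter on low counts 70 rows opposed the sum, and with the 12 OSM libraries alone 1605 departed; fewer libraries then inform the spread. DESeq2 called 900 rows in the 3-way contrast against 560. At a limit of 2-fold, the counts were 665 departures (107 exceeding, 344 short, 41 back to PBS, 26 opposing, 147 with the sum not called), 4486 rows for EGF, 919 for TGFB, 4894 for both, 1521 for both against EGF, 3808 for both against TGFB, 312 departures with OSM, 93 shared, 207 in the 3-way contrast and 221 for TGFB on EGF against OSM. The share of departures that were higher was 53.5% with no filter, 47.7% with upper-quartile scaling and 43.1% with DESeq2. On the CPM scale the sign of the departure was opposite in 111 of 1627 short rows with a positive sum, CCN2 and THBS1 among them, in 81 of 355 rows that exceeded a negative sum and in 1 of 467 that exceeded a positive one. Same-numbered libraries deviated together with correlations of -0.0073 to 0.102 in the 12 libraries, 1 of 18 over 0.1. Over all 27 libraries the range was -0.053 to 0.158, with 10 of 108 over 0.1. Each of the 12 libraries, and 25 of the 27, correlated best with its own number, so the numbers carry some shared deviation. Because the correlations were small, the main fit did not pair samples by number. With the replicate number as a block, the 3-way contrast had 1190 calls and TGFB on EGF against OSM 1809; departures were called higher in 10 junction, 6 NRF2, 5 glycolysis, 4 G1 and 4 FOXO genes and lower in 10 squamous, 7 mitotic and 3 FOXO genes. At this depth genes under 1 CPM rest on few reads, and their folds are imprecise.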
